A study of Mus musculus with 28 samples.

Results

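Wild-type mouse embryonic fibroblasts that had not received the reprogramming factors (WT noOKSM, 2 libraries) were compared with wild-type fibroblasts at day 0 of the reprogramming series (WT d0, 2 libraries), across all genes of a poly(A) RNA-seq series of 28 libraries. The 4 libraries are defined by their sample labels: genotype WT, cell type MEF (mouse embryonic fibroblast), and either d0 or noOKSM in the title. The comparison was chosen with earlier results of these data known. The other 24 libraries are WT cells at d2, d4, d6, d8 and as induced pluripotent stem cells (iPSCs), and the 7 matching groups of a genotype labelled K36M. OKSM stands for Oct4, Klf4, Sox2 and Myc, the factors that turn fibroblasts into iPSCs, and K36M is a histone H3 with methionine in place of lysine 36. The library names of all WT samples carry the tag H3_3, the name of histone variant H3.3, and the labels do not say whether a transgene, promoter or inducer stands behind it in either group. MEFs were kept in DMEM with serum, per the labels' protocols. Strain, embryo stage, passage, time in culture and any inducer of noOKSM cells are not stated. The library names of the 4 noOKSM libraries (WT and K36M) start with MHb9 and those of the other 24 start with MHb8. Every value below therefore compares WT noOKSM of the MHb9 series with WT d0 of the MHb8 series, and the sample type and the library series cannot be told apart.

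MEFs are primary cultures grown out of dissociated embryos. Fibroblasts that make collagen, fibronectin and actin stress fibres dominate them, but early passages also carry embryonic macrophages, mesothelial cells, neural crest derivatives and skeletal precursors. Growing embryonic fibroblasts typically transcribe the imprinted genes Igf2 and H19, and their sterol genes and antioxidant genes respond to the medium and to stress through the transcription factors Srebf2 and Nrf2 respectively.

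Values are CPM, each count divided by its library size and put on the usual CPM scale, after TMM scaling of the library sizes by the bulk of the genes. The 4 libraries held 22050529 and 23421174 counts (WT d0) and 35622279 and 30520243 (WT noOKSM). A gene is said to have risen or fallen where edgeR's quasi-likelihood test gave an adjusted p below 0.05 over all 16932 tested genes; other genes are given by their values. The labels do not name replicates as separate cultures; p-values therefore reflect only how far these libraries differ, and that spread may be technical. The model covers all 14 groups, and a list's tested members include some that are near 0 in these 4 libraries and pass the filter through another group.

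Of the 16932 genes, 1389 were called, which is 8.20%, and 3651 had an unadjusted p below 0.05. Of all tested genes, 702 rose (4.15%) and 687 fell (4.06%). Every WT count of list members below is to be read beside these shares. The median change over all genes was 0 on the log2 scale, which the scaling sets near 0, and the median size of a called change was 0.722. Only 166 genes rose at least 2-fold (0.980%) and 293 fell at least 2-fold (1.73%). Large changes were mostly falls. Of the 59 genes called with a log2 change of 3 or more in either direction, 43 fell and 16 rose. Of these 43 falls, 11 were of annotated pseudogenes, and no CPM floor was applied. The count of 1389 called genes rests on few libraries. It was 649 without WT d0 replicate 1, 635 without WT noOKSM replicate 1 and 728 without WT noOKSM replicate 2. Without WT d0 replicate 2 it was 1379. With plain library totals in place of TMM scaling, 516 genes rose and 977 fell.

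The 4 libraries had the profile their label names. Acta2, smooth muscle actin, stood at 11320 and 10300 CPM in WT d0 and at 11490 and 11600 in WT noOKSM. The fibroblast surface protein Thy1 read 1025 and 923 CPM against 984 and 958, and Col1a1, the main chain of type I collagen, 9075 and 12290 against 8327 and 7445. None of these 3 genes was called. Xist, the transcript of the inactive X chromosome, was at or below 0.0699 CPM in all 4 libraries and the Y-linked gene Ddx3y between 110 and 139 CPM.

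Of the 4 reprogramming factors 2 fell and 0 rose, beside 4.06% of all tested genes that fell. Pou5f1, which codes for Oct4, had 66 counts over the 2 WT d0 libraries (1.34 and 2.09 CPM) and 1 count over the 2 WT noOKSM libraries. That is a 92.2-fold ratio per scaled library with a 95% exact interval of 16.0 to 3700 that covers counting error only. Sox2 had 69 counts against 4, a ratio of 24.1 (9.0 to 90.9). Both fell by the test (adjusted p = 6.51e-05 and 5.98e-05, edgeR). Their d0 levels were traces beside those of later WT groups of the MHb8 series. Pou5f1 had a mean of 277 CPM at WT d2 and 918 in WT iPSCs, and Sox2 177 and 552. In K36M d0 their means were 2.45 and 1.74 CPM. Klf4 read 55.7 and 57.8 CPM at WT d0 and 60.6 and 65.0 in WT noOKSM. Myc read 80.0 and 70.9 CPM against 78.9 and 77.7, and neither was called. The pluripotency gene Nanog was below 1 CPM in all 4 libraries, and 1 of the 25 tested pluripotency genes was called, L1td1, which fell from a mean of under 1 CPM. L1td1 was not called without WT d0 replicate 2 or without WT noOKSM replicate 2 (adjusted p = 0.158 and 0.269).

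H3f3a, one of the 2 genes for histone H3.3, lies on chromosome 1 from 182730963 to 182744074 of mm9. It read 49.1 and 43.3 CPM at d0 and 163 and 155 CPM in noOKSM, 3.43-fold higher (log2 change 1.78, SE 0.116, adjusted p = 6.97e-10, edgeR). The noOKSM libraries stood far above both d0 libraries. H3f3b, the other gene for the same protein, went the other way, from 437 and 395 CPM to 293 and 301 (log2 change -0.49, adjusted p = 0.000384). The table counts reads per gene and does not separate an H3.3 transgene from the native H3f3a. The H3f3a level of WT noOKSM was not particular to that group. In the MHb8 series its means were 186, 223, 215 and 193 CPM at WT d2, d4, d6 and d8, and 60.9 in WT iPSCs. Of the 11 tested H3.3 genes and chaperones no other one was called, and none of the 20 enzymes of H3K36 methylation and PRC2 was called (median log2 change 0.146). Of these 20 enzymes 4 had an unadjusted p under 0.05, DESeq2 called 0, 2 rose in the fit without WT d0 replicate 2 and 1 rose with no filter on low counts.

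Among named genes above 5 CPM, the largest rise was that of Uts2d, which codes for a urotensin-related peptide: 15.6 and 16.1 CPM in WT noOKSM against 1.29 and 0.918 at d0 (14.3-fold, log2 change 3.84, SE 0.328, adjusted p = 2.84e-07). Serpinb2, the plasminogen activator inhibitor PAI-2, rose from 2.42 and 2.70 CPM to 16.4 and 18.8 (6.84-fold). Dsp, desmoplakin, which anchors intermediate filaments at desmosomes, rose 5.06-fold to 22.8 and 23.0 CPM. In all 3 the noOKSM libraries lay several-fold above both d0 libraries. Cobl, an actin nucleator, had the tightest replicates of the set, 8.86 and 8.52 CPM against 37.1 and 37.3 (log2 change 2.10, SE 0.102, adjusted p = 2.94e-12). The Wnt antagonist Dkk2 rose 3.43-fold, from 19.8 and 17.9 CPM to 63.4 and 65.6. Cd59a, which protects cells from complement, and Pdgfrl, a PDGF receptor-like protein, rose 3.71-fold and 3.56-fold. Another 7 rises by the rule were those of Dgkk, Kazald1, Ica1l, Lynx1, Slfn2, Ly6a and H3f3a, from 3.11-fold for Ly6a, the Sca-1 surface antigen, to 4.17-fold for Dgkk, a diacylglycerol kinase.

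The largest named fall was that of Cd200, a surface ligand that restrains myeloid cells. It read 12.8 and 14.2 CPM at d0 and 0.314 and 0.242 CPM in noOKSM, 47.2-fold lower (log2 change -5.56, SE 0.375, adjusted p = 1.03e-09). Nell2, a secreted glycoprotein of the nervous system, was 16.1-fold lower, and Msln, the mesothelial surface protein mesothelin, 11.3-fold lower at 0.803 and 0.565 CPM against 8.80 and 6.99. These 3 genes were close to absent in noOKSM. Of the 15 largest falls by the rule the most abundant transcript was the imprinted long noncoding RNA H19: 679 and 722 CPM at d0 against 116 and 99.7 (6.49-fold lower, log2 change -2.70, SE 0.315, adjusted p = 1.56e-05). Eln, elastin, fell from 65.3 and 74.4 CPM to 14.7 and 13.8, and Acan, the cartilage proteoglycan aggrecan, from 6.17 and 7.71 CPM to 1.29 and 1.01. Apobec3, an antiviral cytidine deaminase, was 5.26-fold lower at 4.19 and 3.83 CPM. The other 8 falls by the rule were Ngfr, C1qc, Ctss, Mpeg1, Lyz2, C1qa, Stab1 and Apoe. They ranged from 4.55-fold for Apoe, an apolipoprotein made by macrophages among other cells, to 6.23-fold for Ngfr, the low-affinity nerve growth factor receptor.

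**Figure D1:**
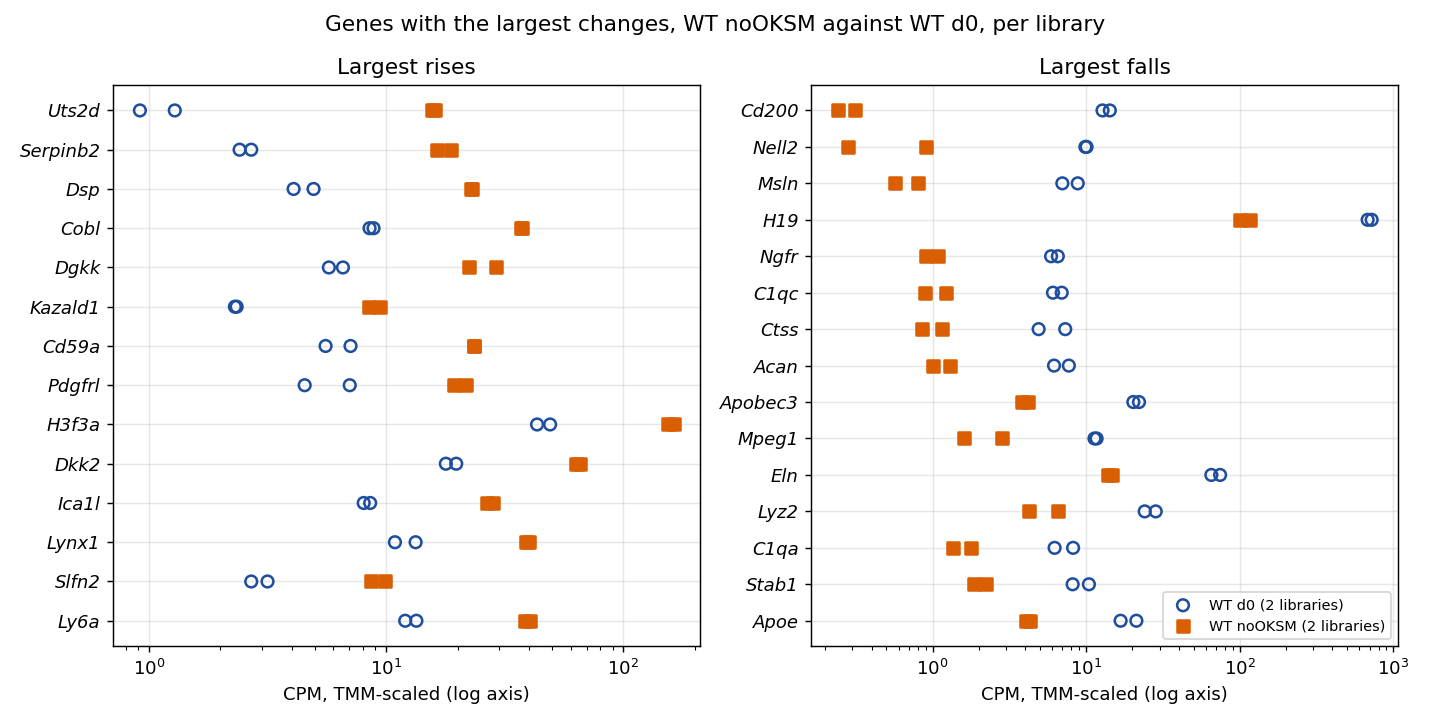
CPM on a log axis for 14 of the 15 largest rises (left) and the 15 largest falls (right) by the naming rule; open circles are the 2 WT d0 libraries and filled squares the 2 WT noOKSM libraries. The rule required groups that do not overlap, and H19 is the highest of the falling genes at 679 and 722 CPM in WT d0.

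Markers of macrophages and of several other cell types fell. Of 17 tested macrophage markers 15 fell and 0 rose, with a median log2 change of -2.18, beside 4.06% of all tested genes that fell and an overall median of 0. Their CPM summed to 90.3 and 85.5 at d0 and to 21.9 and 22.8 in noOKSM. Lyz2, lysozyme, read 28.3 and 24.0 CPM against 4.26 and 6.54. The complement genes C1qa, C1qb and C1qc, which macrophages make, fell together: C1qc read 6.92 and 6.07 CPM at d0 and 1.22 and 0.888 in noOKSM (log2 change -2.60, SE 0.267, adjusted p = 1.30e-06). Tyrobp, the myeloid signalling adaptor, had 71 counts against 10 (ratio 9.92, 5.09 to 21.6). Fcer1g, an immune receptor signalling chain, fell from 2.31 and 2.14 CPM to 0.314 and 0.444 (in K36M 0.714 and 0.553 against 0.297 and 0.497, not called). Csf1r, the receptor that macrophages need for survival, fell from 8.10 and 8.93 CPM to 2.83 and 1.86. The members not called were Cd68 and Aif1, at 2.47 and 2.45 CPM against 1.68 and 1.21, and at 0.644 and 0.561 against 0.0699 and 0.161; no tested member was at 0 in both groups. With each of the 4 WT libraries left out in turn, 12 to 14 markers fell. In a bulk library, fewer cells of a type and less RNA per cell cannot be told apart. Csf1 itself, the ligand of Csf1r, rose from 603 and 660 CPM to 1307 and 1297 (log2 change 1.04, adjusted p = 2.70e-06).

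Mesothelial markers had 4 falls and 1 rise among 6 tested (median log2 change -2.79), beside 4.06% of all tested genes that fell. Besides Msln, the fallers were the uroplakins Upk3b (48 counts against 3) and Upk1b (9.39 and 7.5 CPM against 2.44 and 3.55) and the transcription factor Wt1 (3.44 and 3.88 CPM against 0.629 and 1.13). Krt19, a keratin shared by many epithelia, was the riser, from 24.1 and 18.7 CPM to 36.9 and 40.9. Of 10 Schwann cell and neural crest markers 5 fell and 0 rose (median -1.76). Sox10, the transcription factor that defines this lineage, read 1.99 and 1.79 CPM at d0 and 0.280 and 0.282 in noOKSM. Cdh19, a cadherin of Schwann cell precursors, was 6.95-fold lower. Pmp22, the most abundant member of the list, read 127 and 121 CPM against 103 and 100.1 and was not called. The numbers of falls, 4 and 5, were equal in each fit that left out 1 of the 4 libraries.

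Among 19 cartilage and bone markers 6 fell and 0 rose (median -0.45), beside 4.06% of all tested genes that fell. Spp1, osteopontin, fell from 413 and 349 CPM to 129 and 114 (log2 change -1.65, SE 0.109, adjusted p = 7.55e-10), and Tnmd, a tendon and ligament protein, from 76.6 and 67.7 CPM to 25.4 and 26.9. Of 14 endothelial markers 2 fell, Kdr, a VEGF receptor (4.19 and 6.22 CPM against 1.82 and 1.77), and Erg, while Flt1, another VEGF receptor, read 154 and 176 CPM against 150 and 143. The endothelial genes Tie1, Cldn5 and Sox17 had 0 counts in all 4 libraries. The other non-fibroblast lists are given beside the 8.20% of all tested genes that were called. Pericyte and smooth muscle markers had 0 of 7 called by edgeR or DESeq2 and 0 at an unadjusted p under 0.05, red blood cell markers 0 of 2, both with 0 counts, and adipocyte markers 1 fall of 5. Keratinocyte markers had 1 rise and 2 falls of 12, trophoblast and primitive endoderm markers 1 fall of 14, skeletal and cardiac muscle markers 1 rise of 13, and epithelial genes 2 rises (Dsp and Krt19) and 2 falls of 25. Of 14 neuronal markers Stmn2, a microtubule regulator, rose from 12.3 and 9.75 CPM to 29.2 and 34.3 and Tubb3 fell. Erg, with a call from few counts, was not called without WT d0 replicate 2 or either WT noOKSM replicate (adjusted p from 0.0649 to 0.108). The cartilage and bone count was 4 without WT d0 replicate 2 and without WT noOKSM replicate 2. How far a shift between cell types within the cultures enters the other results was not tested.

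**Figure D2:**
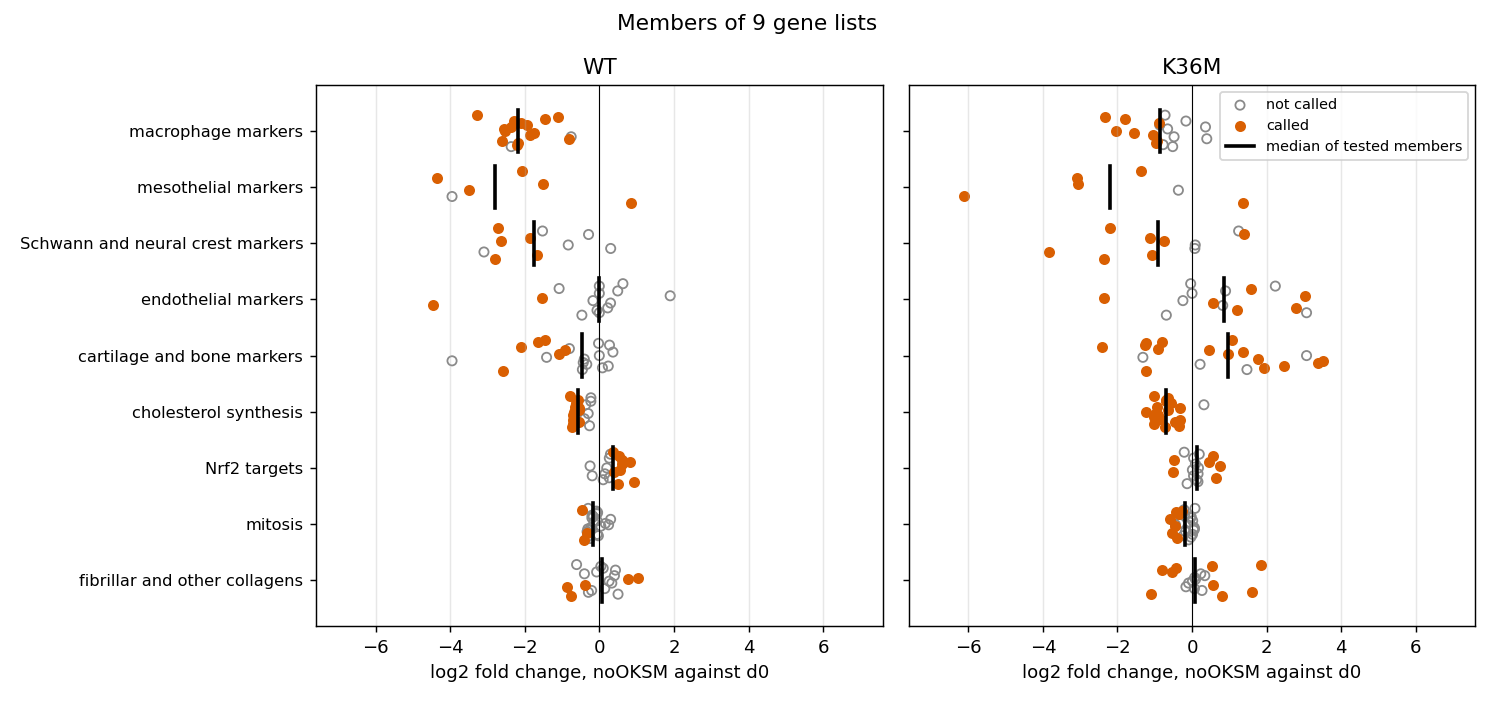
Log2 fold change of noOKSM against d0 for each tested member of 9 lists, in WT (left) and K36M (right); filled points passed the test and the black bar is the list's median. In WT the macrophage, mesothelial and Schwann medians lie at -2.18, -2.79 and -1.76, and the collagen median at 0.0723.

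The fibroblast programme itself had calls in both directions. Of 25 fibroblast and mesenchymal genes 3 rose and 4 fell (median -0.11). The risers were Fn1, fibronectin, from 7311 and 10810 CPM to 17640 and 14920, Cdh2, N-cadherin, from 149 and 173 to 322 and 312, and Zeb2, a mesenchymal transcription factor, from 86.5 and 97.3 to 127 and 126. Fn1 and Zeb2 passed narrowly (adjusted p = 0.0477 and 0.0493) and were not called with DESeq2-type (RLE) or upper-quartile scaling. Fn1 was not called without WT d0 replicate 1 or either WT noOKSM replicate (adjusted p from 0.1 to 0.469), and Zeb2 not without any single one of the 4 libraries (0.064 to 0.374). The fallers were Lum, Dcn, Pdgfra and Fap. Pdgfra, the receptor that marks embryonic stromal cells, read 35.9 and 36 CPM against 21.4 and 19.0. Dcn, the proteoglycan decorin, stood low in both groups, at 4.19 and 4.39 CPM against 2.13 and 1.90, and was not called without any single one of the 4 libraries (0.0618 to 0.112). Pdgfra was not called without WT noOKSM replicate 2 (0.0843), Fap not without WT noOKSM replicate 1 (0.057), and Lum not without WT d0 replicate 1 or WT noOKSM replicate 1 (0.0929 and 0.158). With 1 library left out, 1 or 2 fibroblast genes rose and 1 to 3 fell.

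Of 18 collagens 2 rose, the linked basement membrane chains Col4a5 and Col4a6, and 3 fell. That is 27.8% called, beside 8.20% of all tested genes. Col11a1, a minor fibrillar chain, read 319 and 390 CPM against 216 and 199.7, and Col18a1 49.8 and 62.7 against 33.8 and 28.2. Col4a5 was not called without any single one of the 4 libraries (adjusted p from 0.0527 to 0.319), and Col11a1 not without WT d0 replicate 2 or WT noOKSM replicate 2 (0.0657 and 0.0823). With 1 library left out, 1 to 3 collagens rose and 1 to 3 fell. None of 22 collagen-processing enzymes was called in the fit to all libraries or by DESeq2, with 2 at an unadjusted p under 0.05. With only the 8 MEF libraries, only the 4 WT libraries or no filter on low counts, edgeR called 2 of them lower. Among 25 matrix proteoglycans and glycoproteins 5 fell and 1 rose (24.0% called). The fallers included Eln, the microfibril-associated gene Mfap4 (17.7 and 13.6 CPM against 7.55 and 6.29) and Fbn2, a fibrillin (92.8 and 139 against 75.6 and 66.4). Fbn2 was not called with the 8 MEF libraries alone (adjusted p = 0.103). Postn, periostin, fell from 1940 and 1980 CPM to 1282 and 1133, and Efemp1, a fibulin, was the riser. Fbn2 was not called without WT d0 replicate 2 or either WT noOKSM replicate (0.137 to 0.36), Mfap4 not without WT d0 replicate 1 or WT noOKSM replicate 2 (0.0901 and 0.0754), Postn not without WT noOKSM replicate 2 (0.062), and Efemp1 not without either replicate 1 (0.0694 and 0.0527). The matrix falls were 1 without WT noOKSM replicate 2 and 3 without each of the others. Metalloproteases and their inhibitors had 1 fall of 18, Mmp12, which was not called without WT noOKSM replicate 1 (0.0596). Of 25 contractile and TGF-beta-responsive genes Myh11, smooth muscle myosin, rose from 215 and 274 CPM to 432 and 414, Tgfbi fell from 18.7 and 18.3 to 7.27 and 7.30 and Des, desmin, from 94.7 and 83.6 to 54.0 and 56.5.

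Of 19 tested sterol synthesis genes 12 fell, 0 rose and 7 were not called (median log2 change -0.58). Of all tested genes 4.06% fell. Cyp51, a lanosterol demethylase, read 308 and 299 CPM at d0 and 180 and 183 in noOKSM (log2 change -0.74, SE 0.137, adjusted p = 0.000993). Dhcr7, which makes cholesterol from its last precursor, read 21.2 and 24.1 CPM against 14.3 and 13.5. Fdps, of the step to farnesyl diphosphate, read 227 and 219 CPM against 133 and 140, and Stard4, a sterol carrier, 85.8 and 96.0 against 54.8 and 50.3. For each the noOKSM libraries lay below both d0 libraries, with changes that were uniform and under 2-fold. The regulator gene Srebf2 (211 and 240 CPM against 203 and 183) was not called. The sterol count was 9 without WT noOKSM replicate 2, where Stard4 was not called (0.0772), and 11 without each of the others. Of 15 fatty acid and adipocyte lipid genes 5 fell, all desaturases or an elongase, with Scd2 at 1298 and 1464 CPM against 991 and 903. Lpl, lipoprotein lipase, rose from 18.5 and 16.3 CPM to 35.1 and 35.6. The 5 lipid falls were 2 without WT d0 replicate 2, 2 without WT noOKSM replicate 1 and 1 without WT noOKSM replicate 2.

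Nrf2 targets were the list with the largest share of risers: 9 of 17 rose and 0 fell (median 0.357), beside 4.15% of all tested genes. Hmox1, heme oxygenase, rose from 119 and 107 CPM to 197 and 206 (log2 change 0.83, SE 0.108, adjusted p = 1.75e-05). Aox1, aldehyde oxidase, rose from 5.74 and 7.45 CPM to 12.4 and 13.0, and Nqo1, a quinone reductase, from 23.2 and 19.5 to 31.0 and 33.9. Gclm and Gclc, the subunits of the first enzyme of glutathione synthesis, were both among the risers, with Srxn1, Txnrd1, Gstm1 and Abcc1. The ferritin genes Fth1 and Ftl1 were not called. The count of risers depended on single libraries: it was 6 without WT d0 replicate 1, 7 without WT d0 replicate 2 and 5 without either WT noOKSM replicate, and no target fell in these fits. Nqo1 and Gstm1 were not called without WT d0 replicate 2 or either WT noOKSM replicate (adjusted p from 0.0556 to 0.129 and from 0.0766 to 0.279), and Gclc and Txnrd1 not without WT d0 replicate 1 or either WT noOKSM replicate (0.0853 to 0.265 and 0.104 to 0.235). Abcc1 was not called without WT d0 replicate 1 (0.0605). Other stress and energy lists are given beside the 8.20% of all tested genes that were called. Heat shock genes had 1 rise of 13, metal-response genes 1 rise of 5, endoplasmic reticulum chaperones 1 rise and 1 fall of 17, ATF4 targets 2 falls of 21, p53 targets and Cdk inhibitors 2 falls of 23, glycolysis 1 rise of 19, hypoxia targets 3 rises and 2 falls of 18 (27.8% called), and the nuclear-encoded respiratory chain 0 of 20 by edgeR and by DESeq2, with 3 at an unadjusted p under 0.05. Without WT d0 replicate 2, 1 respiratory chain gene fell, and without WT d0 replicate 1 the hypoxia list had 2 rises and 1 fall. The p53 target Cdkn1a read 644 and 626 CPM against 612 and 612.

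**Figure D3:**
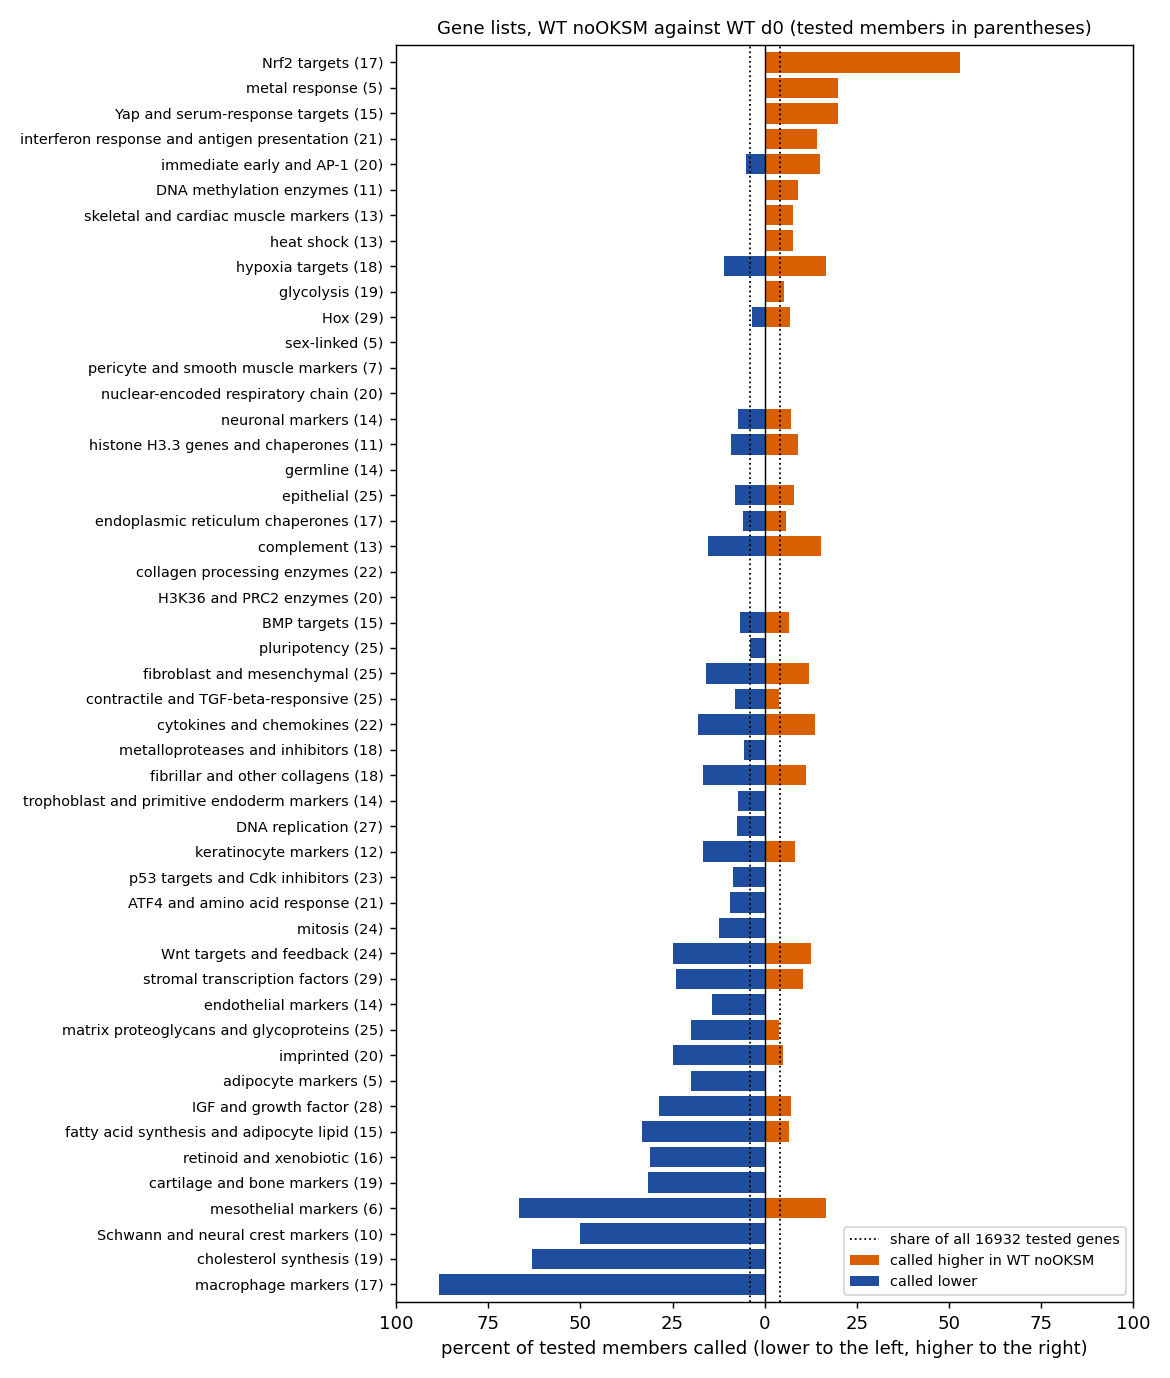
Percent of each list's tested members called higher (right, orange) or lower (left, blue) in WT noOKSM than in WT d0, for lists with at least 5 tested members; dotted lines mark the shares of all 16932 tested genes, 4.15% higher and 4.06% lower. Macrophage markers (15 of 17 fell) and Nrf2 targets (9 of 17 rose) are at the ends.

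Growth factor genes fell more often than they rose: 8 of 28 genes of the IGF and growth factor list fell and 2 rose (median -0.20). Of all tested genes 4.06% fell and 4.15% rose. Igf2, the fetal insulin-like growth factor, read 551 and 615 CPM at d0 and 193 and 182 in noOKSM (3.11-fold lower, log2 change -1.64, SE 0.307, adjusted p = 0.00197). Igf2 lies beside H19 on chromosome 7 of mm9, at 149836673 to 149852721 against 149761434 to 149764048, and both fell. Its binding proteins Igfbp2 and Igfbp3 fell from 73.5 and 64.1 CPM to 26 and 29.4, and from 16.8 and 21.3 to 7.58 and 7.14. Gdf6, a BMP-family ligand, was 2.79-fold lower, while Fgf2, a fibroblast mitogen, rose from 4.24 and 6.53 CPM to 9.05 and 11.2 (adjusted p = 0.0286, and 0.0578 with DESeq2). Of 20 tested imprinted genes 5 fell and 1 rose, Nnat, a small membrane protein, from 21.6 and 20.1 CPM to 41.1 and 40.4. The growth factor list had 1 rise and 6 falls without WT d0 replicate 2, and 0 rises and 4 falls without each of the other WT libraries. Igfbp2 and Fgf2 were not called without WT d0 replicate 1 or either WT noOKSM replicate (adjusted p from 0.0727 to 0.137 and from 0.062 to 0.391). The imprinted falls were 4 without WT d0 replicate 1 and 3 without each of the others.

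Wnt targets and feedback genes had 3 rises and 6 falls of 24 (37.5% called), beside 8.20% of all tested genes. Dkk2, the cell-cycle gene Ccnd1 (208 and 252 CPM against 401 and 395) and the transcription factor Lef1 rose. The feedback target Axin2 was low in both groups, at 1.5 and 0.970 CPM against 0.384 and 0.242, and fell, as did the secreted antagonist Sfrp1 (51.7 and 61.2 against 25.9 and 26.6) and the receptor Lgr5 (3.97 and 4.90 against 1.4 and 1.37). Lef1 was not called with DESeq2 (adjusted p = 0.0549), without WT d0 replicate 1 or without either WT noOKSM replicate (0.129 to 0.568), and Axin2 not without WT d0 replicate 1 (0.0542), where 4 genes of the list fell. BMP targets had 1 rise and 1 fall of 15, Yap and serum-response targets 3 rises of 15, and immediate early genes 3 rises and 1 fall of 20. Of 16 retinoid and xenobiotic genes 5 fell and 0 rose (31.2% called). They included Aldh1a2, which makes retinoic acid (5.96 and 6.17 CPM against 2.44 and 2.26), and the retinoid-binding protein Crabp1 (214 and 182 against 108 and 116). Without each of the 4 WT libraries 3 retinoid genes fell, and without each one but WT d0 replicate 2 the Yap targets had 1 rise. Immediate early genes had 1 rise and 0 falls without WT noOKSM replicate 1, 2 rises and 3 falls without WT d0 replicate 2, and 2 rises and 4 falls with total-count scaling.

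Secreted immune signals were mixed. Of 22 cytokine and chemokine genes 3 rose, with Csf1 and Hgf among them, and 4 fell, with Cxcl14 at 36.7 and 33.5 CPM against 18.2 and 19.0. Of 21 interferon and antigen presentation genes 3 rose, all from under 1 CPM: Cxcl10 to 1.96 and 1.25 CPM, Ifit3 to 3.42 and 2.02 and Ifit1 to 2.31 and 1.45. Complement genes had 2 rises and 2 falls of 13. Positional and stromal regulators changed in both directions, with 3 rises and 7 falls of 29 stromal transcription factors. That is 34.5% called, beside 8.20% of all tested genes. Tbx2, a limb and mesenchyme regulator, fell from 13.7 and 12.7 CPM to 4.16 and 4.64. Of 29 Hox genes 10.3% were called, near that share. Hoxa11 rose from 2.31 and 1.63 CPM to 5.28 and 5.69 and Hoxa10 from 11.2 and 10.9 to 16.9 and 16.5. Hoxa5 fell from 44.2 and 35.4 CPM to 25.6 and 24.6. Hgf was not called without any single one of the 4 libraries (adjusted p from 0.0615 to 0.123), Ifit3 not without WT noOKSM replicate 1 (0.062), Ifit1 not without either replicate 1 (0.16 and 0.151), and Hoxa5 not without WT d0 replicate 1 or either WT noOKSM replicate (0.0689 to 0.201). Without WT d0 replicate 2 the cytokine list had 2 rises and 3 falls, and without each of the others 1 rise and 2 falls. The stromal transcription factor rises were 3 without WT noOKSM replicate 2, 2 without WT d0 replicate 2 and 1 without either replicate 1. The falls of that list were 2 without WT d0 replicate 1, 5 without WT d0 replicate 2, and 2 and 4 without WT noOKSM replicates 1 and 2. Of the cell division genes, 3 of 24 mitosis genes (12.5%) and 2 of 27 DNA replication genes (7.41%) fell, all by under 2-fold, beside 4.06% of all tested genes. With total-count scaling 7 mitosis genes fell. No gene of either list rose with all libraries, and Mki67, a marker of cycling cells, read 190 and 258 CPM against 288 and 265. Without WT d0 replicate 1 none of the mitosis or replication genes was called, and without WT d0 replicate 2 Mki67 rose (adjusted p = 0.0421). DNA methylation enzymes had 1 rise of 11 and germline genes 0 of 14 by edgeR and by DESeq2, with 1 at an unadjusted p under 0.05.

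The same comparison in K36M cells shares no library with the WT one, but it crosses the same library series. There 5834 genes were called (34.5% of 16932), and the difference between the 2 changes was called for 4246 genes (25.1%), or for 2301 without WT d0 replicate 1 and 2699 without WT noOKSM replicate 1. Of the 1389 genes called in WT, 796 were also called in K36M, which is 57.3% of the WT genes and 13.6% of the K36M genes. Direction was shared by 455 and opposite for 341. Replicates of K36M noOKSM differed most among the fibroblast groups (chi-square per degree of freedom 31.4, against 2.35 for K36M d0). The value was 21.9 for WT d0 and 5.42 for WT noOKSM. The model draws its spread from all groups, which limits the WT counts as well as the K36M counts. Sterol synthesis genes fell in K36M as well, 18 of 19, and of the 17 macrophage markers 8 fell there. Macrophage markers summed to 29.7 and 28.1 CPM in K36M d0 and to 14.4 and 19.8 in K36M noOKSM, and the K36M d0 sums lay nearer to those of WT noOKSM than to those of WT d0. The difference between the 2 changes was called for 8 of the 17. Of the Nrf2 targets 4 rose and 2 fell in K36M. Of all 16932 tested genes 3186 rose and 2648 fell in K36M. Every K36M count of list members is to be read beside these. Igf2 fell from a mean of 1150 to 398 CPM in K36M.

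Of the 15 largest WT rises, 10 rose in K36M, 2 fell and 3 were not called. Of the 15 largest falls, 7 fell, 2 rose and 6 were not called. Beside these stand 3186 rises and 2648 falls in K36M among all 16932 tested genes. These genes were chosen for their WT change, which enters the difference, so the 14 rises and 13 falls whose difference was called are a description. Cobl and Ly6a rose in WT and fell in K36M (Cobl from a mean of 5.90 to 2.92 CPM). Eln fell in WT and rose in K36M, from 35.9 to 54.8 CPM. Among other named genes Des fell in WT and rose in K36M from 42.1 to 217 CPM, and Fn1 rose in WT and fell in K36M from 9981 to 4331 CPM. Lgr5 fell in both, by 1.68 on the log2 scale in WT and by 5.55 in K36M. Genes whose largest difference came from K36M were Qprt, Slc52a3 and Spon2, which rose there and were not called in WT, and Tnn, which fell further in K36M. The WT fall of Tnn was not called without any single one of the 4 libraries (adjusted p from 0.0583 to 0.18).

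**Figure D4:**
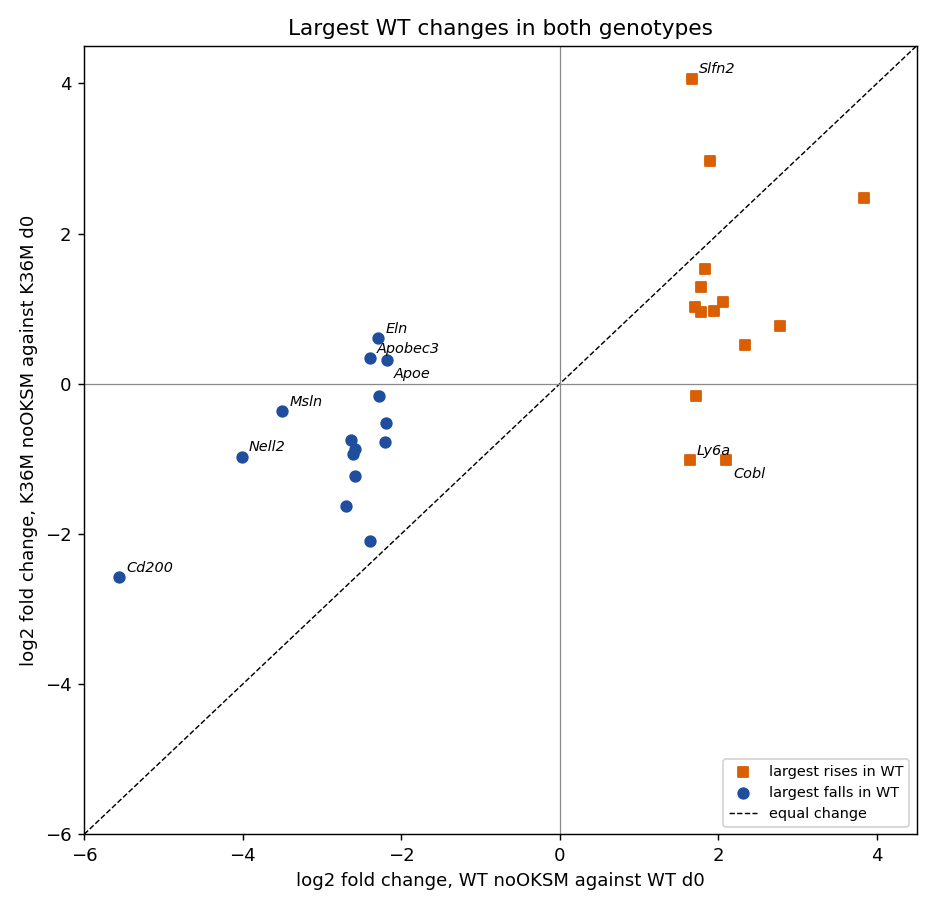
Log2 fold change of noOKSM against d0 in WT (horizontal) and K36M (vertical) for 29 of the 30 largest WT changes; the dashed line marks equal change. Uts2d lies at 3.84 and 2.48 and Cobl at 2.10 and -1.01.

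Some genes set the 4 noOKSM libraries, which are also the 4 of the MHb9 series, apart from all others. Chosen after their values were seen, 16 of the 16932 tested genes were lower in the 4 noOKSM libraries than in all 24 others. The rule was a gap of at least 2-fold between the nearest libraries, with at least 1 CPM on the high side. Of the 16 genes, 9 carry predicted or pseudogene names. The share of such names among all tested genes is not given here. Pou5f1 and Sox2 are also among the 16. Rps13-ps1, a copy of the ribosomal protein gene Rps13, had 0 counts in both WT noOKSM libraries against 1362 over the 2 WT d0 libraries. The lower limit of the 95% exact interval is 515-fold, for counting error only. It stood between 21.8 and 66.7 CPM in all 24 MHb8 libraries. Rpl3-ps1, a copy of Rpl3, read 2.55 to 4.78 CPM in noOKSM libraries and 45.4 to 156 in the others. Their parents were not called in WT: Rps13 read 374 and 281 CPM against 267 and 279, and Rpl3 728 and 608 against 671 and 711. Gm13456, a 96.8% identical copy of Eef1a1, read 12.4 to 13.5 CPM against 72.5 to 136.

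The copies are shown here because so few bases tell them from their parents. Rps13-ps1 (chromosome 8, 89571619 to 89572074 of mm9, plus strand) differs from an Rps13 transcript at 2 of 456 aligned bases, Rpl3-ps1 (chromosome X, 12779697 to 12780906, plus strand) from Rpl3 at 2 of 1210, and Gm10020 (chromosome 15, 52309169 to 52309783, minus strand) from Rpl15 at 2 of 615. Windows of 240 bases are printed 5′ to 3′ from the mm9 reference genome, at chr8:89571808-89572047, chrX:12779697-12779936 and chr15:52309544-52309783, with capitals marking the bases that differ from the parent transcript.
Rps13-ps1: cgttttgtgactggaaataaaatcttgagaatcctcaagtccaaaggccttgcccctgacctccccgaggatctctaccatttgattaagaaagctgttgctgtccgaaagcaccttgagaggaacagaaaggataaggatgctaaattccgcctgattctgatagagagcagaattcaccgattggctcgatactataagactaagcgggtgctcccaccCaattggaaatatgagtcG
Rpl3-ps1: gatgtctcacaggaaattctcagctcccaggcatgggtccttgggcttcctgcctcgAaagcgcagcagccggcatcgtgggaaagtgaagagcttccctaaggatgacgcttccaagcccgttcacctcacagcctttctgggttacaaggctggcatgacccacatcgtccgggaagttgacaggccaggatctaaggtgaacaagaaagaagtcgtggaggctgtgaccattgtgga
Gm10020: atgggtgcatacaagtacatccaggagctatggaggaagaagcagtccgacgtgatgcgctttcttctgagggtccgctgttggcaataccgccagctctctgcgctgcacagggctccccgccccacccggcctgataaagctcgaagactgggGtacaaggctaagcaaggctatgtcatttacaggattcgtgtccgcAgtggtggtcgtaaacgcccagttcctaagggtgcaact
For Rpl3-ps1 the window holds 1 of the 2 differing bases, and for the others both. A read that covers no differing base matches both the copy and the parent. How such reads were counted is not given in the sources used here, so the counts of these copies are uncertain.

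Gm10020 and Rpl15-ps2, 2 copies of Rpl15, split the WT libraries another way. Gm10020 read 6.17 and 5.41 CPM at WT d0 and 4.43 to 10.5 CPM over the 12 WT libraries of the MHb8 series, but 0.105 and 0.161 CPM in WT noOKSM and 0 to 0.208 over WT noOKSM and the 14 K36M libraries. In counts this was 221 at d0 against 7, a ratio of 44.1 (21.1 to 111). Rpl15-ps2 read 1.49 to 4.40 CPM in the 12 WT libraries and 0.0461 to 0.355 in the other 16. For both genes the WT noOKSM libraries lay with the K36M libraries and apart from the other WT libraries. They were the only 2 of the 16932 tested genes that met the same 2-fold rule in this direction. In the reverse direction 0 genes met it, so the next gene, Rnaset2b, did not. Rnaset2b, a ribonuclease gene on chromosome 17, was at 0 in both WT d0 libraries and at a mean of at most 0.0265 CPM in the later WT groups of that series. It read 1.89 and 2.18 CPM in WT noOKSM and 2.41 and 1.93 in K36M d0. Gm10704, also chosen after its values were seen, read 9.55 and 9.64 CPM at WT d0, 1.71 and 1.94 in WT noOKSM and a mean of 1.67 in K36M d0. A further 5 of the 16932 tested genes were higher in the 4 noOKSM libraries than in all others, with Uts2d and Slfn2 among them. WT noOKSM alone stood above the other 26 libraries for 15 genes, including Serpinb2 and Ica1l, and below them for 8, including Apobec3 and Msln. What sets these libraries apart was not tested. The labels do not say whether WT noOKSM and WT d0 share a MEF line or strain, or whether their reads were mapped and counted alike, and this bears on every noOKSM against d0 value above.

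**Figure D5:**
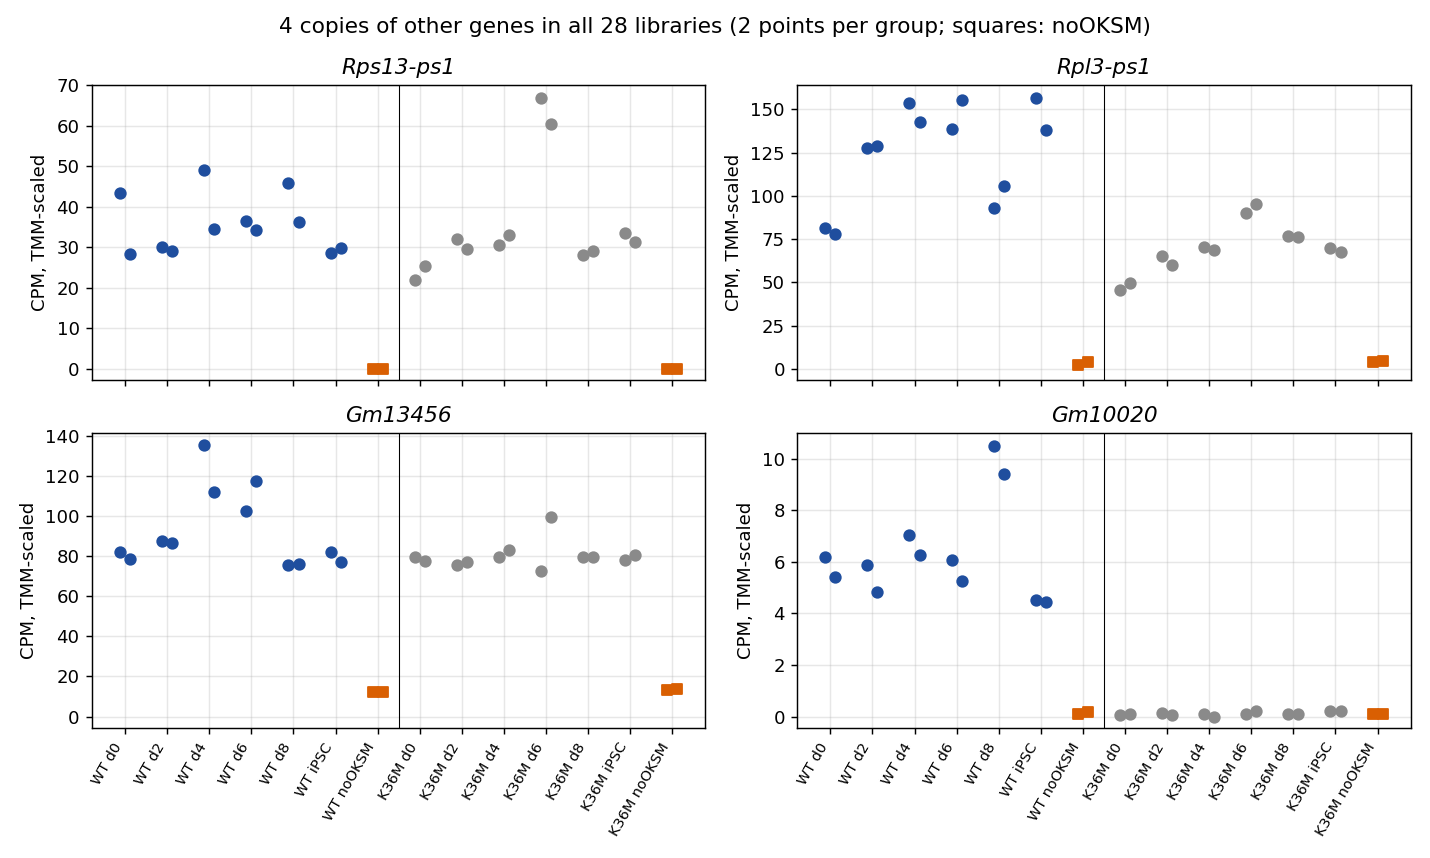
CPM (linear axes) of 4 copies in all 28 libraries, 2 points per group; WT groups are to the left of the line in each panel and orange squares are noOKSM. Rps13-ps1, Rpl3-ps1 and Gm13456 are low in all 4 noOKSM libraries, whereas Gm10020 is high in the 12 other WT libraries and at most 0.208 CPM in WT noOKSM and K36M.

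The direction of calls also varied with gene class and transcript length. Of 578 tested pseudogenes 6.57% were called, beside 8.20% of all tested genes. Among them 34 fell and 4 rose, and 11 fell at least 8-fold. Long intergenic noncoding RNAs had 18 rises and 4 falls of 632, and processed transcripts 11 rises and 1 fall of 391. Among 15286 protein-coding genes 669 rose and 647 fell. By transcript length, the shortest of 3 equal classes of expressed coding genes had 116 rises and 220 falls and a median log2 change of -0.096, and the longest 318 rises and 137 falls and a median of 0.117. The 3 classes by GC content had medians from -0.0064 to 0.029. The part of length in the gene results was not tested.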

How the data were processed

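Poly(A) RNA was measured in 28 libraries of 14 groups. The authors deposited raw counts: whole numbers per gene, not normalized. Tools named in the submitters' processing notes are STAR 2.5.0, HTSeq 0.11.2 and edgeR, and the named build is mm9. Strand setting, annotation and the treatment of reads with several matches: not given in the sources used here. All 28 columns were matched to samples by name (0 left over).

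Counts were analysed with edgeR 4.0.16 in R 4.3.3: TMM scaling, filterByExpr (minimum count 10, minimum total 15), a robust quasi-likelihood fit to all 14 groups (14 residual degrees of freedom) and two-sided p-values adjusted by Benjamini-Hochberg over 16932 genes. Contrasts were noOKSM against d0 in WT, in K36M, and the difference of the 2. Standard errors are the log2 change divided by the square root of F. Of the 37620 gene IDs, 37205 were found in GENCODE vM1 (mm9). Copies were aligned to its coding transcripts with blastn. Replicates of WT d0 and of WT noOKSM differed beyond sampling noise (chi-square per degree of freedom 21.9 and 5.42 over genes). The values were 2.35 for K36M d0 and 31.4 for K36M noOKSM. The fit was tested on simulated data.

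Named genes were, among called genes of at least 5 CPM with groups that do not overlap and no predicted or ribosomal name, the 15 largest rises and falls. To these were added, per list, up to 4 called members per direction of at least 1 CPM, 15 fixed genes and the 5 largest differences per direction between K36M and WT. The libraries compared, the lists and the rules were chosen with earlier results of these data known. Some genes that the rules name are not reported here. Alternatives covered scaling, filters, the libraries fitted, replicate blocks, each WT library left out, and DESeq2 1.42.0.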

Additional observations from a re-analysis of the deposited data

Results flagged for a closer look

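The change from d0 to noOKSM differed between K36M and WT for 4246 genes by a test of the difference itself (edgeR quasi-likelihood, adjusted p below 0.05). All values here are the K36M change minus the WT change on the log2 scale, for genes named above. The WT change of many of them was what led to their being named, so the sizes are descriptive.

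Among genes of the WT rises, the difference was -3.11 for Cobl, -2.65 for Ly6a, -2.01 for Serpinb2, -1.88 for Ica1l, -1.83 for Dsp, -1.37 for Uts2d, -0.97 for Kazald1, -0.97 for Dgkk, -0.83 for Dkk2, -0.68 for Lynx1 and -0.49 for H3f3a. It was positive for Cd59a (1.08) and Slfn2 (2.40), which rose further in K36M. Among the falls it was 3.13 for Msln, 3.04 for Nell2, 2.98 for Cd200, 2.91 for Eln, 2.73 for Apobec3, 2.50 for Apoe and 1.34 for Acan.

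For macrophage genes the difference was 2.56 for Tyrobp, 2.12 for Lyz2, 1.89 for Fcer1g, 1.72 for Ctss, 1.68 for Stab1, 1.67 for C1qc and 1.43 for C1qa; their K36M d0 levels were below those of WT d0. For the neural crest receptor Ngfr it was 1.89, for Pmp22 1.68, for the uroplakin Upk1b -1.55, for the endothelial gene Erg 5.27 and for the neuronal genes Stmn2 and Tubb3 -1.65 and 0.452.

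Matrix, contractile and adhesion genes differed in both directions: Fn1 by -2.05, Zeb2 by -1.11, Col4a6 by -0.98 and Cdh2 by -0.86, and Des by 3.05, Lum by 2.36, Tnmd by 2.53, Mfap4 by 2.28, Col11a1 by 1.57, Tgfbi by 1.28, Spp1 by 0.84, Postn by 0.77, Pdgfra by 0.70 and Col18a1 by 0.69. Signalling and metabolic genes did so too: Lgr5 by -3.88, Nqo1 by -1.09, Gclc by -0.91, Abcc1 by -0.63, Txnrd1 by -0.57, Gclm by -0.56, Srebf2 by -0.42, Lef1 by -0.95, Cxcl14 by -0.85, Csf1 by -0.78, Aox1 by -0.78, Ccnd1 by -0.71 and Lpl by -0.65, and Igfbp2 by 2.44, Sfrp1 by 2.18 and Igfbp3 by 1.77.

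The Hox genes split, with Hoxa11 at -1.88, Hoxa10 at -0.92 and Hoxa5 at 1.82. Klf4 stood at -1.78, the pluripotency gene L1td1 at 3.41, Mki67 at -0.91, Cdkn1a at 0.49, the imprinted gene Nnat at 1.01 and H3f3b at 0.33. Genes that moved mainly in K36M were Tnn (-4.07), Spon2 (4.22), Slc52a3 (5.21) and Qprt (7.00). The difference was 5.93 for Gm10020, 4.97 for Rpl15-ps2, 2.86 for Gm10704, 1.12 for Rpl3-ps1, 0.65 for Rps13 and 0.54 for Rpl3. Rnaset2b, at 0 in both WT d0 libraries, had a fitted difference of -7.20, a size that depends on the model's prior count and is no bound.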

How the results depend on the processing

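No called gene named above changed direction under any alternative tried. With one WT library left out, the counts ranged from 635 to 1379 called genes, 272 to 721 higher, 352 to 658 lower, 100 to 178 higher at least 2-fold, 202 to 255 lower at least 2-fold, 5617 to 5863 called in K36M and 2301 to 4379 for the difference. In these fits the lone library is assumed to vary like the other groups, and 11 to 22 of 138 named genes lost their call. The remaining alternatives kept each count within 1.5 times the main one. Called genes were 1235 from the 4 WT libraries alone, 1472 with DESeq2 and 1880 with no filter on low counts. The genes themselves were shared less fully. Of the 1389 main calls, 1041 (74.9%) were kept with the 4 WT libraries alone and 1111 (80%) with the 8 MEF libraries. The other settings that kept all libraries shared from 86.6% to 97.6% of the main calls. Total-count scaling gave 516 higher and 977 lower genes, so 34.6% of called genes were higher against 50.5% in the main analysis. Fn1 and Zeb2 were not called with RLE, upper-quartile or total-count scaling, Gstm1 and Lef1 not with the latter 2, Gclc and Txnrd1 not with total-count scaling, Fbn2, Lef1, L1td1 and Erg not with the 8 MEF libraries alone, Gstm1 and Lef1 not with the 4 WT libraries alone, and Fgf2, Lef1, L1td1 and Erg not with DESeq2. Calls were gained by Pmp22 with the 8 MEF libraries, Aif1 with the 4 WT libraries and with each other scaling, and Col1a1, Cd68 and Aif1 with no filter. Same-numbered libraries of WT d0 and WT noOKSM did not deviate together (correlation -0.219 over 10961 genes). The same measure was 0.609 for WT d0 with WT d4 and -0.58 for WT d0 with K36M noOKSM, groups of different genotype. It therefore cannot decide whether the numbers pair libraries. A replicate block gave 1389 called genes, and a replicate block within genotype gave 1397, and among named genes Fn1 and Lef1 lost their call in the first, Fbn2 and Lef1 in the second. A crossed replicate block, added after the correlation of -0.219 was seen, gave 1483 and ended the call of Lef1. Depth limits genes near 1 CPM, where 1 count is 0.0403 CPM in WT noOKSM replicate 2.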
